A study of Mus musculus with 12 samples.

Results

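Wide peaks of histone H3 trimethylated at lysine 4 (H3K4me3) that the deposited annotation left without a gene were examined in the nuclei of adult mouse cardiomyocytes (CMs). They are the autosomal peaks with an empty gene field, a width from 2000 to under 5000 bases and a mean of at least 10 normalized counts over the 6 chromatin immunoprecipitation and sequencing (ChIP–seq) libraries. This selection gave 366 of 15848 peaks. They were selected on width and level, which are measured values, so levels and widths are given as descriptions only. The selection took no account of genotype.

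Libraries were made from the ventricles of mice on a C57BL/6 background. CtrlCre mice, the controls, carried the αMHC-Cre transgene, which expresses Cre recombinase from a cardiomyocyte promoter, and an intact Cpt1b gene. Cpt1bcKO mice carried the same transgene and loxP-flanked exons of both copies of Cpt1b (Cpt1b fl/fl), the muscle form of carnitine palmitoyltransferase 1, through which long-chain fatty acids enter mitochondria. Controls were littermates, and Cre is active from embryonic stages on, so both genotypes had been exposed to it. Nuclei were sorted for PCM1, a protein of the CM nuclear surface, and 3 H3K4me3 libraries per genotype entered the comparison, which asks where H3K4me3 changes once CMs cannot import long-chain fatty acids. The labels do not state whether each library is a separate animal, so p-values measure the spread between libraries, which may be technical. The deposited values hold no check of the deletion, because H3K4me3 at the start of Cpt1b does not measure the deleted exons.

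H3K4me3 marks the nucleosomes that flank active transcription start sites. It is deposited mainly where CpG-rich DNA keeps a promoter open, and many genes of a differentiated cell carry it at more than 1 promoter, because transcription can begin at an internal start and yield a shorter or tissue-specific transcript. The mark outside annotated promoters can belong to a start that the annotation lacks or to a strongly active enhancer.

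Counts in peaks ranged from 763133 to 2766416 per library, and CtrlCre replicate 2 was the shallowest. The peaks without a gene held 2.70 to 2.82% of these counts in the CtrlCre libraries and 2.53 to 2.65% in the Cpt1bcKO libraries. Their median count lay between 50.5 and 176 reads per library, and counting error alone amounted to 7.54 to 14.1% of the value at the median peak. A count of 3 reads corresponds to 1.95 to 6.97 normalized counts, and these figures cover counting error only. Among the peaks assigned to CM marker genes, 10 of 10 markers carried a tested peak, with summed values of 8244 to 9878 in CtrlCre and 6081 to 8917 in Cpt1bcKO libraries, and 1 of their 11 peaks was lower at an adjusted p under 0.05. A single gene of 8 carried a tested peak in each of the fibroblast, endothelial and leukocyte lists, and all defining collagen genes of fibroblasts were without one. Their sums were 58 to 69 against 56 to 63 for fibroblasts, 39 to 91 against 31 to 51 for endothelial cells and 30 to 51 against 27 to 42 for leukocytes. Markers of mural cells, the contractile cells of vessel walls, had peaks at 4 of 8 genes: Kcnj8, Abcc9, Acta2 and Myh11. Pdgfrb, Rgs5, Notch3 and Tagln had none. The 4 peaks summed to 296 to 351 in CtrlCre but to 182 to 191 in Cpt1bcKO libraries, and 2 of them were lower at an adjusted p under 0.05. This shift has the direction of most changes below. Whether it reflects mural nuclei was not tested, nor was its part in those changes.

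Sequence set most of these peaks apart from promoters with an assigned gene. The ratio of observed to expected CpG dinucleotides, which is near 1 where CpG is not depleted, had a median of 0.348, against 0.658 in the 3627 gene-assigned peaks of the same width and 0.460 in the 2183 shorter peaks without a gene. Median GC content was 49.8%, against 55.2% and 51.7%. The sequences below show the 200 bases richest in CpG of peaks described in the following paragraphs, read 5′ to 3′ from the plus strand of GRCm38 with every CpG in capitals. The first 4 peaks lost signal in Cpt1bcKO CMs, the next 3 gained it, and the final pair had the highest levels of the group.
Intergenic peak on chromosome 6, chr6:44570384-44570583: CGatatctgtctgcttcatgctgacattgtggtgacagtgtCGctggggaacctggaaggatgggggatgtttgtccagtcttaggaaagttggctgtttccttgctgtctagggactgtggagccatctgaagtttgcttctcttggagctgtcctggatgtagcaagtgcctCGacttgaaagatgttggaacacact
Ttn, chr2:76807011-76807210: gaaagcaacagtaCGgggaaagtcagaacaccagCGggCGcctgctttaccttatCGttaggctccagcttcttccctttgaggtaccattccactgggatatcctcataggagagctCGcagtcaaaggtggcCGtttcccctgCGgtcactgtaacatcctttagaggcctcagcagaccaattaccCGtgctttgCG
Mtr, chr13:12200215-12200414: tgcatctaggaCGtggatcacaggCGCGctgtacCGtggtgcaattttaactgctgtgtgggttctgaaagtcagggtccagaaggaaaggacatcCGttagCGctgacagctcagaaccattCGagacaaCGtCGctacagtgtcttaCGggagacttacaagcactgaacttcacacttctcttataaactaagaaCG
Chd6, chr2:160981499-160981698: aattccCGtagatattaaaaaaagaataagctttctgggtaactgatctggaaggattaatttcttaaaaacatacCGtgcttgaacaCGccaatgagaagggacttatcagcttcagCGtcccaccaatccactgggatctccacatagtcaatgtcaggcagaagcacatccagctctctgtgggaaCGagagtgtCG
Cpxm2, chr7:132070686-132070885: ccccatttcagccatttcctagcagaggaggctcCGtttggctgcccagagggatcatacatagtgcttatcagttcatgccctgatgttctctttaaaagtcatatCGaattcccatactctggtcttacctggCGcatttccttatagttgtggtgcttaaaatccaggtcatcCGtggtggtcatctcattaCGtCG
AC119982.1, chr19:27260955-27261154: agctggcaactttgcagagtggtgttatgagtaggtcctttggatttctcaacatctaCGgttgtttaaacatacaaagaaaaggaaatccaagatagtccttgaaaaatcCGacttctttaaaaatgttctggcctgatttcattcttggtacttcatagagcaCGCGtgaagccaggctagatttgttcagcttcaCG
Ablim1, chr19:57238391-57238590: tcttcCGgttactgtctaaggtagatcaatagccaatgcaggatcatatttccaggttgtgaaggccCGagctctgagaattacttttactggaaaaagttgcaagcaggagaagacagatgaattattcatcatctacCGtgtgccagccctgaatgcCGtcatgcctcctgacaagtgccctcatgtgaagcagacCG
Nav2, chr7:49245936-49246135: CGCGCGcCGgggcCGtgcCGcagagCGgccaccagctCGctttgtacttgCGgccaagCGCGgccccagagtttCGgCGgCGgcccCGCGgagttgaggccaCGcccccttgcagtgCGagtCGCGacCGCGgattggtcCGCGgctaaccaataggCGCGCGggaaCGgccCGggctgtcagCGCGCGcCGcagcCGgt
Gpsm1, chr2:26342172-26342371: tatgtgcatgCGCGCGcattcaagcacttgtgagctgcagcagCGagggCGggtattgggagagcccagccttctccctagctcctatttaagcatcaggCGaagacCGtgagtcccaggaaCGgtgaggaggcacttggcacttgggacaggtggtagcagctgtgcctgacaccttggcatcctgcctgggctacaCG

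The Nav2 window held 34 CpG, the arrangement of a CpG island, whereas the other 8 windows held 3 to 11. The intergenic window held 3, the Cpxm2 window 6 and the Gpsm1 window 9, although Gpsm1 had nearly the same level as Nav2. Coding exons filled 143 of the 200 bases in Ttn, 104 in Chd6, 69 in Cpxm2 and 64 in Mtr. The windows of AC119982.1 and Gpsm1 overlapped exons of non-coding transcripts only, and those of Ablim1, Nav2 and the chromosome 6 peak overlapped no exon.

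Short motifs were counted in the 1000 bases around the middle of each peak, on both strands. GGGCGG, the box bound by SP and KLF factors at CpG-rich promoters, occurred in 41.3% of these peaks, in 75.6% of gene-assigned peaks of the same width and in 74.5% of all tested peaks. CCGGAAG, an ETS motif, was found in 7.38%, against 21.3% and 23.3%. The shares ran the other way for TATAAA, the TATA box, found in 150 of 366 peaks against 20.8% and 22.7%, and for MEF2, the motif of a family of muscle transcription factors, with 15.6% against 7.22% and 8.23%. The TATA and MEF2 patterns can overlap, since both consist mainly of A and T. GATA motifs (AGATAA) occurred in 30.3% against 23.2% and 25.2%, TEAD motifs (GGAATG) in 44.3% against 33.7% and 36.2%, CCAAT in 68.6% against 61.0% and 64.7%, the CArG box of SRF in 5.19% against 3.86% and 3.66%, a nuclear receptor motif (TCAAGGTCA) in 3.28% against 1.99% and 1.63%, and the palindromic NRF1 motif in 0.546% against 1.52% and 1.82%. Shorter peaks without a gene lay nearer to the wide ones for most motifs, with MEF2 in 17.0%, GATA in 37.6%, TEAD in 42.6%, CCAAT in 67.9%, TATA in 33.9%, SP and KLF in 49.7% and ETS in 13.5%, so the MEF2 share was no higher in the wide peaks than in the short ones. These are matches of letters, whose frequency moves with GC content, and not binding sites.

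Examples of MEF2 matches follow, with the motif in capitals, for the first 3 of the changed peaks described below that hold a match outside annotated untranslated regions. They come from introns of genes whose peaks lost H3K4me3.
Ttn, chr2:76806513-76806553: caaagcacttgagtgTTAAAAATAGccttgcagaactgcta
Lclat1, chr17:73206027-73206067: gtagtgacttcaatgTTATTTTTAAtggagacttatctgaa
Mylk4, chr13:32773714-32773754: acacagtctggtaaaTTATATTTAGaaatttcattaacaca

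Anywhere within the peak, a MEF2 match was present in 17 of the 49 peaks called lower, in 5 of the 13 called higher and in 116 of the 304 peaks that were not called, so the shares of 34.7%, 38.5% and 38.2% lay close together.

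Most of these peaks were not remote from transcription starts. In GENCODE vM21, a later release than the one used for the deposited annotation, 250 of 366 peaks (68.3%) held an annotated transcript start, and 199 of them held the start of a coding transcript. Another 14 had a start within 5000 bases, and 102 (27.9%) lay farther from any start. Of those 102, 16 were within 5000 bases of a start in RefSeq and 80 were farther from one. The rest had no RefSeq distance. The outermost start of a gene lay inside only 31 peaks (8.47%), against 90.4% of gene-assigned peaks of the same width. This contrast follows largely from the selection, because the authors assigned genes by the nearest promoter within 5000 bases. The starts in question were therefore mainly internal ones: 296 peaks lay in a coding gene or at a coding start, and among the 275 without an outermost start the median distance from the start of the gene was 61589 bases, 51.8% of the way along it. No annotated gene covered 46 peaks.

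Host genes numbered 274, and 16 of them carried more than 1 such peak. Tns1, which encodes the focal adhesion protein tensin, carried 4, and Camta1, Pde4d, Ank3 and Foxp1 carried 3 each. The median level of all 366 peaks was 115 normalized counts and 39.7 per kb of width, against 185 and 68.2 per kb in gene-assigned peaks of the same width. Peaks with a coding start inside had a median of 149, and peaks over 5000 bases from any start had a median of 76.9. Across the 366 peaks, which share libraries and depth, the level per kb had a Spearman correlation of 0.42 with the CpG ratio and of −0.32 with the distance to a start.

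The highest level was found at an internal start of Nav2, which encodes a microtubule-associated navigator protein (chr7:49245468-49250059). Values were 417, 377 and 328 in CtrlCre replicates 1 to 3 and 443, 394 and 439 in Cpt1bcKO replicates 1 to 3, and the genotypes overlapped. Gpsm1, which encodes a modulator of G-protein signalling, followed with 397, 349 and 448 against 376, 440 and 363 at the starts of non-coding transcripts (chr2:26339307-26343780). Its own assigned promoter peak reached only 64 to 79 in the 6 libraries. Slc8a1, the cardiac sodium–calcium exchanger, had 380, 337 and 358 against 313, 351 and 301 in a peak that holds the gene's outermost start in vM21. The fourth highest mean, at Tsc22d1, a leucine zipper protein, belonged to a peak with a coding start that was lower in Cpt1bcKO CMs, with 424, 398 and 346 against 311, 301 and 250 (chr14:76503310-76507051; log2 difference −0.44 ± 0.11, limma, adjusted p = 0.0216). That call was lost without CtrlCre replicate 1 or Cpt1bcKO replicate 3 (adjusted p up to 0.168). At Schip1, which encodes a protein that binds schwannomin, values were 319, 307 and 309 against 349, 333 and 389. Of these 5 peaks, the other 4 did not reach an adjusted p under 0.05 (limma, 0.405 to 0.979). Per kb of width, the highest mean, 110, belonged to an intergenic CpG-rich peak on chromosome 9 (chr9:67632179-67634681), which had 268, 316 and 244 against 286, 255 and 283 and lay 65500 bases from the nearest start, that of the pseudogene Gm47110. Kcnn2, a calcium-activated potassium channel, Ndel1, a dynein regulator, Clta, the clathrin light chain A, and Trim7, a ubiquitin ligase, came next with 104, 101, 98.0 and 97.6 per kb, all at coding starts.

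In Cpt1bcKO CMs, 49 of the 366 peaks were lower and 13 were higher at an adjusted p under 0.05, when 1.82% of all 15039 tested peaks were lower and 1.11% higher (limma on log2(value + 1), Benjamini–Hochberg over all tested peaks). In either direction 62 peaks (16.9%) were called, against 2.93% of all tested peaks, 4.36% of gene-assigned peaks of the same width and 2.84% of shorter peaks without a gene. The shorter peaks had a median level of 24.7, against 115 in the wide ones. Their median SE of the log2 difference was 0.333 against 0.145, so a change of equal size was less likely to be called there. At an unadjusted p under 0.05, 94 were lower and 41 higher, against 6.98% and 5.84% of all tested peaks. The 3 values of the genotypes did not overlap in 80 peaks that were lower and 30 that were higher, against 8.46% and 7.8% of all tested peaks. The log2 difference was negative in 231 of 366 peaks (63.1%), and its median was −0.083, against 0.006 over all tested peaks. Shorter peaks without a gene shared this shift, with 60.8% negative and a median of −0.087. Gene-assigned peaks of the same width had 44.7% negative and a median of 0.020. These are nuclei in bulk, so fewer nuclei with the mark and less of the mark per nucleus cannot be told apart.

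The counts were smallest without CtrlCre replicate 1, with 31 peaks lower and 6 higher, and calls over all tested peaks fell with them, from 274 to 139 lower and from 167 to 90 higher. Without Cpt1bcKO replicate 3, 33 peaks were lower, and without Cpt1bcKO replicate 2 or replicate 3 the higher count was 8. Leaving out the shallow CtrlCre replicate 2 gave 44 lower and 17 higher. A correction of each library for GC content gave 45 lower and 29 higher, a different balance of directions from the 49 and 13 without it. The same shift ran through all tested peaks, from 274 lower and 167 higher to 276 and 274.

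The summed signal of the peaks without a gene was set against that of other peaks in the same library, which cancels the scaling between libraries. Its log2 ratio to gene-assigned peaks of the same width was −3.82, −3.83 and −3.76 in CtrlCre replicates 1 to 3 and −3.94, −3.86 and −3.92 in Cpt1bcKO replicates 1 to 3. The genotypes did not overlap, and the mean fell from −3.80 ± 0.040 to −3.91 ± 0.038 (SD, n = 3 each; difference −0.11, exact two-sided permutation test, p = 0.1, which is the minimum for 3 against 3). The ratio to shorter peaks without a gene was −0.72 ± 0.011 in CtrlCre and −0.71 ± 0.029 in Cpt1bcKO libraries, which overlapped (difference 0.002, exact permutation p = 1.0). Among the peaks without a gene, those over 5000 bases from a start changed against the others by −0.04 in summed signal (exact permutation p = 0.5). This value depended on how it was computed: it was −0.28 with the median over peaks in place of the sum, −0.15 with far taken as over 10000 bases and −0.09 as over 2000 bases (exact permutation p = 0.1 in each, the minimum).

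**Figure D1:**
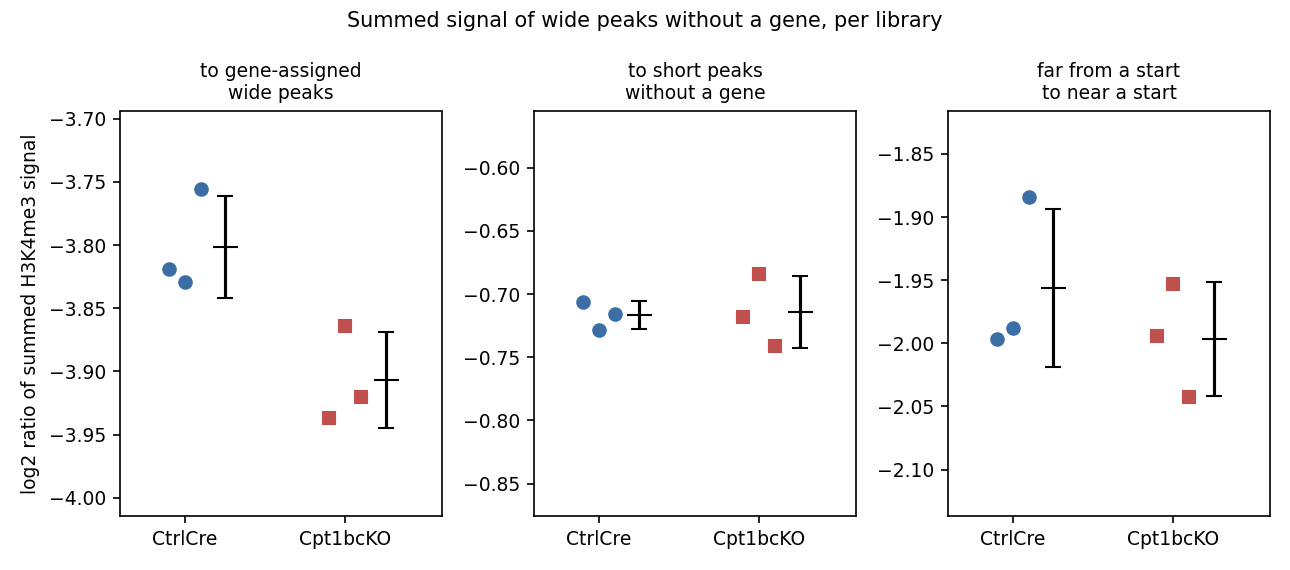
Each point is the log2 ratio of summed H3K4me3 signal in 1 library, for 3 CtrlCre (circles) and 3 Cpt1bcKO libraries (squares), with the mean and SD in black. The 3 panels show the wide peaks without a gene against gene-assigned peaks of the same width, against shorter peaks without a gene, and those far from a transcript start against those near one, and all axes span the same range. Only in the first panel do the genotypes not overlap.

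Of the 8 named peaks that were lower in Cpt1bcKO CMs, Mylk4 alone held the start of a coding transcript, as did 20 of all 49 lower peaks. At an intergenic peak on chromosome 6 (chr6:44569145-44572470), 94965 bases from the nearest annotated start, CtrlCre replicates 1 to 3 had 147, 114 and 93 normalized counts and Cpt1bcKO replicates 1 to 3 had 17, 11 and 19. The genotypes were far apart, with a log2 difference of −2.84 ± 0.25 (SE; limma, adjusted p = 3.05e-07). Within Ttn, the gene of the giant sarcomeric protein titin, a peak with its middle 175582 bases downstream of the start (chr2:76805193-76808738) had 167, 100 and 136 in CtrlCre but 20, 28 and 26 in Cpt1bcKO libraries. Each Cpt1bcKO value lay below each CtrlCre value, and the log2 difference was −2.38 ± 0.21 (limma, adjusted p = 3.16e-07). No transcript start was annotated in this peak, and the nearest, also of Ttn, lay 17804 bases away.

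Mtr encodes methionine synthase, an enzyme of the cycle that supplies methyl groups. Its peak at the start of a retained-intron transcript (chr13:12196324-12200626) fell from 162, 135 and 226 to 43, 35 and 22, a log2 difference of −2.37 ± 0.21 (limma, adjusted p = 3.67e-07). Chd6 encodes a chromatin remodeller of the chromodomain helicase family. Its peak (chr2:160979508-160982793), of which 70.4% was exon, had 98, 144 and 184 in CtrlCre and 29, 25 and 17 in Cpt1bcKO libraries, a log2 difference of −2.52 ± 0.23 (limma, adjusted p = 4.33e-07). Lclat1 encodes an acyltransferase that remodels cardiolipin, the lipid of the inner mitochondrial membrane. Values at its peak (chr17:73203905-73208768) were 94, 116 and 127 against 33, 16 and 27, with a log2 difference of −2.15 ± 0.24 (limma, adjusted p = 3.99e-06). For each of these 3 genes the lowest CtrlCre library was more than 2 times the highest Cpt1bcKO library.

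The remaining named losses were smaller. Mylk4 encodes a kinase of the myosin light chain kinase family, and its peak (chr13:32772622-32776703), which holds a coding start, had 297, 205 and 302 in CtrlCre against 116, 131 and 95 in Cpt1bcKO libraries. The log2 difference was −1.22 ± 0.14 (limma, adjusted p = 6.98e-06). At Phyhip, which encodes a protein that interacts with phytanoyl-CoA hydroxylase (chr14:70465917-70470372), 118, 123 and 139 stood against 41, 53 and 54, and the log2 difference was −1.35 ± 0.16 (limma, adjusted p = 1.24e-05). Plekha6, a pleckstrin homology domain protein, carried the strongest of the 8 peaks (chr1:133254977-133258536), with 306, 281 and 270 against 172, 120 and 164. The genotypes stayed apart there as well, with a log2 difference of −0.92 ± 0.12 (limma, adjusted p = 4.53e-05). An antisense gene, Gm19461, overlaps this peak, and ChIP signal cannot be assigned to a strand.

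Among the 8 named peaks that were higher in Cpt1bcKO CMs, those in Ablim1 and Lrrfip1 held a coding start. The peak with the smallest p of all 366 lay in Cpxm2, which encodes a carboxypeptidase-like protein, and overlapped the annotation of Fgfr2, a fibroblast growth factor receptor (chr7:132067889-132071086). It had 17, 21 and 26 in CtrlCre and 111, 168 and 186 in Cpt1bcKO libraries, and the log2 difference was 2.79 ± 0.22 (limma, adjusted p = 7.59e-08). At the start of the long intergenic non-coding RNA gene AC119982.1 (chr19:27258885-27262373), values rose from 66, 77 and 48 to 191, 160 and 260, a log2 difference of 1.66 ± 0.17 (limma, adjusted p = 1.8e-06). Pde4b encodes a phosphodiesterase that degrades cyclic AMP. Its peak (chr4:102486909-102490110), 16512 bases from the nearest start, had 117, 126 and 175 against 266, 300 and 265, a log2 difference of 1.01 ± 0.13 (limma, adjusted p = 2.31e-05).

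Ablim1, which encodes an actin-binding LIM protein, rose at an internal coding start (chr19:57237417-57239480) from 68, 58 and 63 to 105, 123 and 124. The log2 difference was 0.89 ± 0.15 (limma, adjusted p = 0.000858). Plekhm2 encodes an adaptor that links lysosomes to kinesin, and its intronic peak (chr4:141648683-141652456) had 47, 40 and 88 against 104, 127 and 176, with a log2 difference of 1.25 ± 0.22 (limma, adjusted p = 0.00159). Lrrfip1, a nucleic acid-binding protein, had 85, 100 and 112 against 144, 142 and 178 (chr1:91052598-91055786; log2 difference 0.64 ± 0.13, limma, adjusted p = 0.00699). In Slc12a7, a potassium–chloride cotransporter, 174, 142 and 171 stood against 209, 281 and 228 (chr13:73732635-73737256; log2 difference 0.55 ± 0.12, limma, adjusted p = 0.00858). An intergenic peak on chromosome 14 near Gm49390 (chr14:63309394-63312054) had the lowest CpG ratio of the 366 peaks, 0.0863, and values of 8, 23 and 7 against 38, 40 and 31. Its log2 difference was 1.63 ± 0.40 (limma, adjusted p = 0.023), and 3 reads amount to 6.97 normalized counts in CtrlCre replicate 2. The last 3 calls were each lost when some single libraries were left out. Lrrfip1 was not called without CtrlCre replicate 1 or Cpt1bcKO replicate 3 (limma, adjusted p up to 0.0849). Slc12a7 was not called without Cpt1bcKO replicate 2 (limma, adjusted p = 0.0895). The chromosome 14 peak was not called without any library except CtrlCre replicate 2 (limma, adjusted p up to 0.135). Without any of the libraries that cost a call, fewer of all tested peaks were called higher too, 85 to 154 instead of 167. With 1 library left out the log2 difference stayed at 0.535 or more at Lrrfip1, 0.431 or more at Slc12a7 and 1.34 or more at the chromosome 14 peak.

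**Figure D2:**
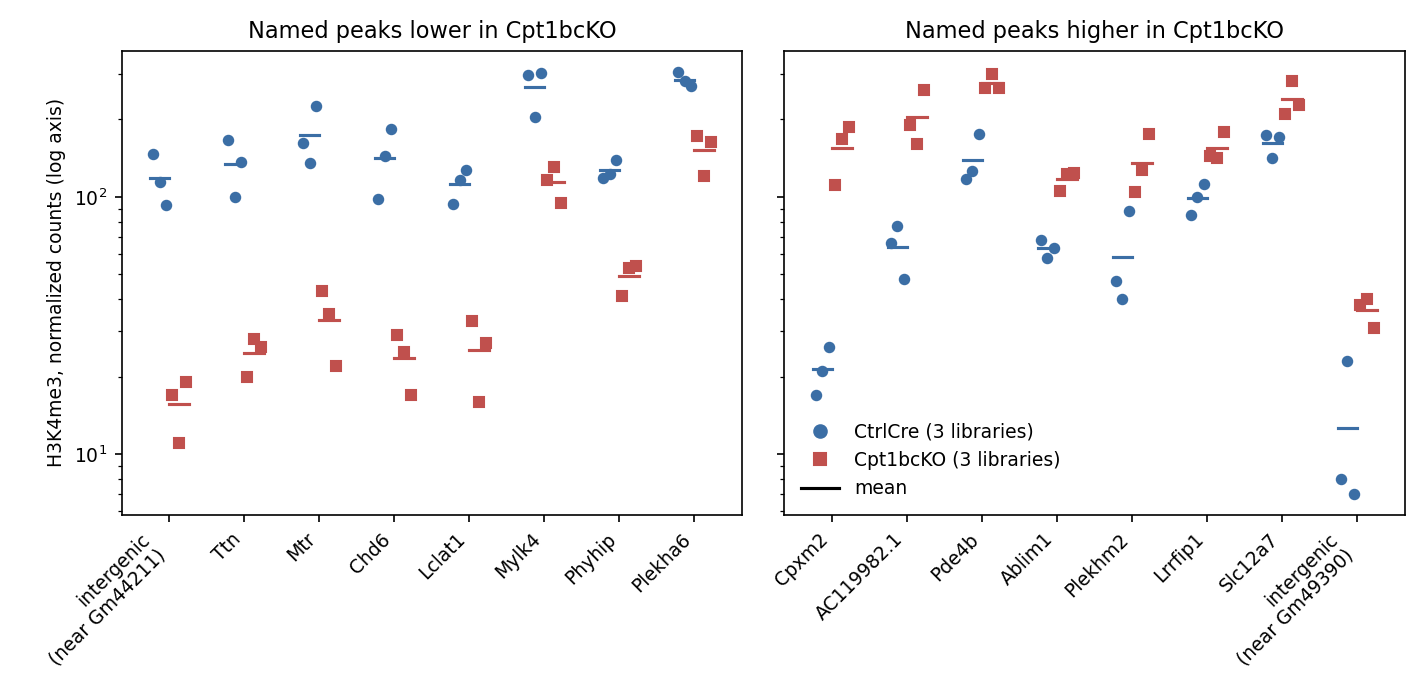
Normalized H3K4me3 counts on a log axis for the 8 named peaks lower (left) and the 8 named peaks higher (right) in Cpt1bcKO, with 1 point per library (circles CtrlCre, squares Cpt1bcKO) and the genotype mean as a line. In all 16 peaks the values of the genotypes do not overlap, which the naming rule required, and the widest separations are at the intergenic peak near Gm44211 and at Cpxm2.

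Another peak of the same gene offered a reference. This partner, termed the host promoter peak, was the strongest peak assigned to the gene, and it need not lie at the outermost start. In Slc12a7 the wide peak holds that start in vM21, and the partner (chr13:73763398-73764891) lies downstream of it. For 212 of the 366 peaks, the host gene also had an assigned peak of its own, and 4 of those host promoter peaks were called lower and 3 higher, when 2.93% of all tested peaks were called in either direction. Of the 29 lower peaks with such a partner, 28 had a host promoter peak that was not called. The median log2 difference was −0.97 for these wide peaks and 0.06 for the host promoter peaks. The wide peaks were chosen because they were called lower, so the choice itself opens a gap between these medians. Over all 212 pairs the medians were −0.112 and 0.008. All 8 higher peaks with a partner had one that was not called. Since few peaks of any kind were called, these counts alone do not set the promoters apart from other peaks. The exception among the lower peaks was Dlc1, whose promoter peak was lower as well.

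A direct comparison of each wide peak with its host promoter peak was added after the data had been seen. Limma on the difference of the log2 values compared their changes between genotypes and not their levels. At an adjusted p under 0.05, 12 of the 212 peaks changed more negatively than their host promoter peak and 0 more positively (45 and 11 at an unadjusted p under 0.05). The shares at an adjusted p were 2.16% and 0.469% of the 1066 peaks without a gene that could be paired in this way. Ttn shows the pattern: the promoter peak had 667, 584 and 750 in CtrlCre and 611, 701 and 507 in Cpt1bcKO libraries (log2 difference −0.14), while the internal peak fell, and the difference between the peaks was −2.24 (limma, adjusted p = 0.012). At Mtr the promoter peak had 159, 135 and 186 against 171, 206 and 178, and the difference between the peaks was −2.59 (limma, adjusted p = 0.00497). The promoter of Chd6 had 122, 107 and 105 against 133, 103 and 141, and that of Lclat1 141, 177 and 150 against 165, 175 and 155. The differences between the peaks were −2.68 and −2.24 (limma, adjusted p = 0.00773 and 0.0107). At Phyhip the difference was −1.32 (limma, adjusted p = 0.0218). Plekha6 did not pass, with a promoter peak of 53, 46 and 30 against 25, 31 and 50 and a difference of −0.62 (limma, adjusted p = 0.393).

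The other 7, named after their values were seen, were Pitpnm2, Macf1, Shroom3, Smox, Foxp1, Tns1 and Adipor2. In Adipor2 it was the weak promoter peak that moved, from 9, 2 and 9 to 31, 31 and 29, while the wide peak had 133, 160 and 148 against 154, 140 and 131. The count of 12 depended on single libraries: it was 2 without CtrlCre replicate 1, 5 without CtrlCre replicate 3, and 3, 6 and 4 without Cpt1bcKO replicates 1, 2 and 3. It was 8 without CtrlCre replicate 2.

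**Figure D3:**
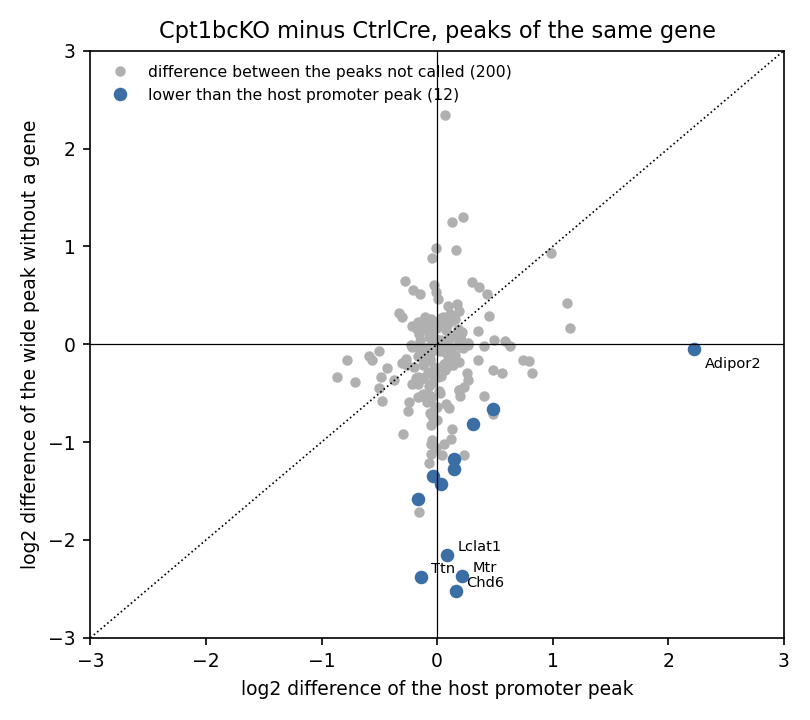
Log2 difference (Cpt1bcKO minus CtrlCre) of 212 wide peaks without a gene on the vertical axis against that of the promoter peak of the same gene on the horizontal axis, with equal differences on the dotted line. Blue marks the 12 peaks whose change was called more negative than that of their host promoter peak. Of these, 11 have differences of −0.66 or lower while their promoter peaks lie between −0.16 and 0.48.

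Genes with several such peaks showed how unequal neighbours can be. In Foxp1, which encodes a forkhead transcription factor, the peak without a nearby start (chr6:99203950-99206331) fell from 53, 56 and 48 to 16, 22 and 19 (log2 difference −1.42, limma, adjusted p = 0.00247). The peaks at the coding starts had log2 differences of −0.02 and −0.01 in the same gene. All 4 peaks of Tns1 had negative log2 differences, from −0.71 to −0.26, and 1 of them passed the test, with 93, 86 and 103 against 60, 60 and 57 (−0.66, limma, adjusted p = 0.0205). Camta1, a calmodulin-binding transcription activator, Pde4d, a cyclic AMP phosphodiesterase, and Ank3, the membrane adaptor ankyrin G, had no called peak among 3 each. Foxp1 and Tns1 were chosen here for their number of peaks, and their values had been seen.

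Calls were concentrated in CpG-poor peaks. The peaks were split into 4 groups of nearly equal size by CpG ratio. In the group with the lowest ratio (0.0863 to 0.248), 31 of 92 (33.7%) were called, with 24 lower and 7 higher. The next group, up to 0.348, had 23.1% called, the third, up to 0.566, had 8.79%, and the group with the highest ratio had 2.17%. Gene-assigned peaks of the same width in the same CpG ranges had 23.8%, 17.7%, 5.99% and 2.18% called. The decline was thus shared by both kinds of peak, and the gene-assigned group was small at the CpG-poor end, with 105 and 141 peaks against 902 and 2479. The median CpG ratio was 0.25 in peaks called lower, 0.25 in peaks called higher and 0.405 in the rest. In the group with the lowest ratio the median log2 difference was −0.28, against −0.27 in gene-assigned peaks of that range. In the next range the medians were −0.20 and −0.0083. CpG-poor peaks were also poor in GC, with a median GC content of 45.4% in the group with the lowest ratio and 57.3% in that with the highest. The GC correction changed the balance of lower and higher calls, and the 4 groups were not recomputed with it. The part of GC content in these group differences was not tested.

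The CpG ratio moved with the level. Of the 183 peaks with the lower levels 20.8% were called and of the 183 with the higher levels 13.1%. Within the lowest CpG group, 32.8% of 61 weak peaks and 35.5% of 31 strong peaks were called, and within the highest, 0 of 19 and 2 of 73 (2.74%). Between them the level went with the calls in opposite directions, with 29.0% of 62 weak and 10.3% of 29 strong peaks called in the second group and 0 of 41 and 8 of 50 in the third. Across the 366 peaks the size of the log2 difference, regardless of sign, had a Spearman correlation of −0.42 with the CpG ratio and of −0.46 with the mean level. Low peaks carry a larger counting error, and the part of level in the CpG pattern was not tested. By position, 24 of 199 peaks with a coding start inside (12.1%) were called, 12 of 51 with only other starts (23.5%), 6 of 14 near a start (42.9%) and 20 of 102 far from one (19.6%).

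**Figure D4:**
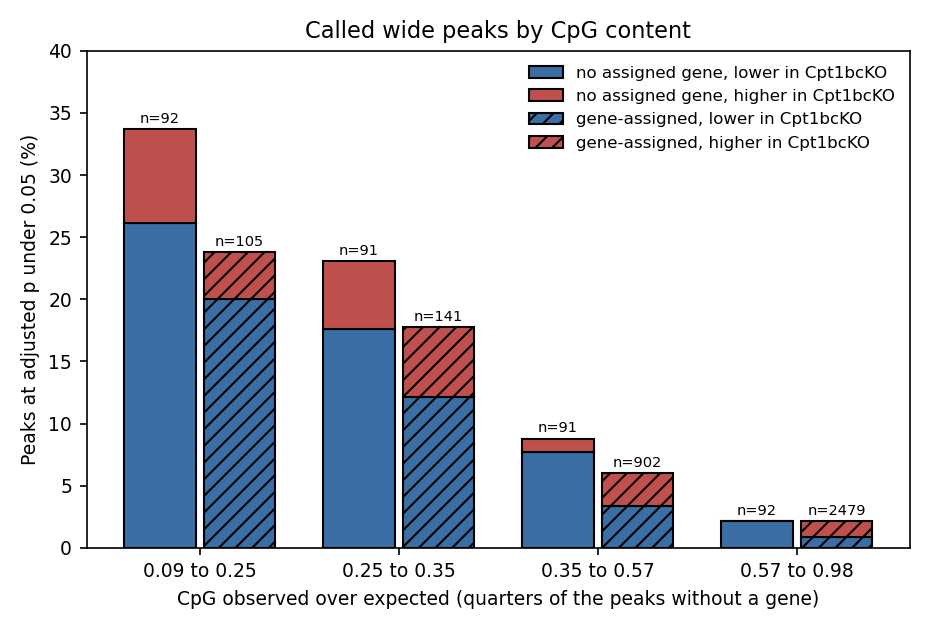
Bars give the percentage of wide peaks called at an adjusted p under 0.05, lower (blue) or higher (red) in Cpt1bcKO, in 4 ranges of the CpG ratio that divide the peaks without a gene into groups of 91 or 92. Plain bars are peaks without a gene and hatched bars gene-assigned peaks of the same width, with the number of peaks above each, and both decline from left to right, from 33.7% to 2.17% and from 23.8% to 2.18%.

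**Figure D5:**
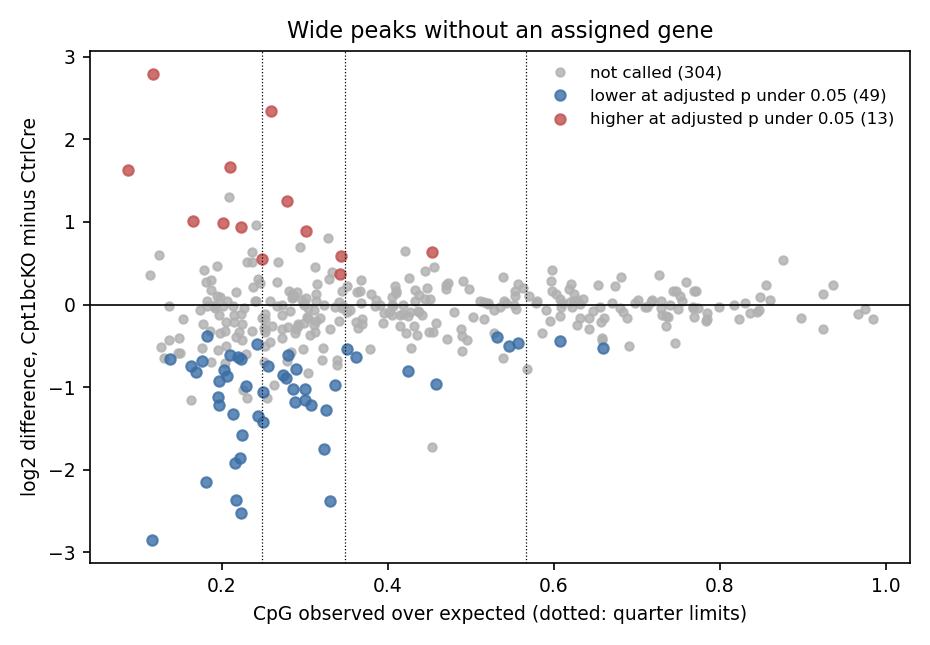
Log2 difference (Cpt1bcKO minus CtrlCre) of each of the 366 wide peaks without a gene against its CpG ratio, with 49 peaks called lower in blue, 13 called higher in red and the limits between the 4 CpG groups dotted. Called differences larger than 1 in either direction lie at CpG ratios up to 0.33, and the points narrow towards 0 on the right.

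Lists of genes of CM function met few of these peaks. Of 50 genes of contraction and CM maturation, 6 had a peak of this kind within them or nearest to them, 7 peaks in all, of which 0 were higher and 1, in Ttn, was lower (0 and 2 at an unadjusted p under 0.05). Their median log2 difference was −0.22, with −0.083 over all 366 peaks and 0.006 over all tested peaks. At Nebl, which encodes the Z-disc protein nebulette, values of 287, 288 and 294 stood against 230, 301 and 224 (limma, adjusted p = 0.419). The peak nearest Rbm20, which encodes the splicing factor of titin, lay 13580 bases from its start and had 157, 137 and 165 against 159, 136 and 115 (adjusted p = 0.651 in limma). Ank2, the membrane adaptor ankyrin B, had 80, 95 and 128 against 80, 113 and 106 (adjusted p = 0.994 in limma). In these 3 peaks the genotypes overlapped.

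Of 28 cardiac transcription factors and cofactors, 4 had a peak, and 0 were called in either direction by limma, with 1 higher and 1 lower at an unadjusted p under 0.05. Smyd1, a muscle methyltransferase, had 296, 232 and 289 against 280, 324 and 271, and Mef2c, a MEF2 factor, had 281, 256 and 259 against 257, 303 and 262. Esrrb, an orphan nuclear receptor, had 167, 195 and 163 against 220, 195 and 203. The genotypes overlapped or met in all 3. Tead1, the partner of the Hippo pathway coactivators, had 54, 42 and 47 against 19, 21 and 33, which do not overlap, and a log2 difference of −0.97 ± 0.27 that missed the threshold (limma, adjusted p = 0.0547; 0.0303 with limma-voom). Its promoter peak had 274, 244 and 309 against 240, 289 and 271, and the difference between the peaks missed the threshold too (limma, adjusted p = 0.166).

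Of 50 genes of fatty acid metabolism, the pathway whose entry to mitochondria was blocked, 2 had a peak. Cd36, the fatty acid transporter of the plasma membrane, carried one at a coding start, with its middle 40102 bases from the start of the gene (chr5:17846521-17850877). It had 327, 235 and 360 in CtrlCre and 180, 252 and 155 in Cpt1bcKO libraries, so Cpt1bcKO replicate 2 exceeded CtrlCre replicate 2. The log2 difference was −0.66 ± 0.15 (limma, adjusted p = 0.015), and the call was lost without CtrlCre replicate 1 or 3, without Cpt1bcKO replicate 1 or 3 (adjusted p up to 0.142 over the alternatives) and with the GC correction. The GC correction also reduced the difference to −0.35. The promoter peak of Cd36 had 448, 465 and 498 against 485, 614 and 431. The change of the internal peak was not called more negative than that of the promoter peak (limma, adjusted p = 0.131). Lipe, hormone-sensitive lipase, had 76, 65 and 81 against 62, 71 and 58 (limma, adjusted p = 0.686), which overlapped.

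The limits of the selection cut through a continuous range. The narrowest peak selected, at Zfand6, was 2000 bases wide with a mean of 66.5, and the widest peak just outside, at Nrxn3, was 1993 bases wide with a mean of 24.3. At the upper limit, the Smarcd3 peak of 4947 bases was selected (mean 260.5), and a Schip1 peak of 5049 bases was not (mean 238). No peak of this width fell under the limit on level, since the lowest mean, at Uck2, was 19.0.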

How the data were processed

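H3K4me3 ChIP–seq of sorted adult CM nuclei comprised 3 CtrlCre and 3 Cpt1bcKO libraries, grouped by their titles. Of 12 listed libraries, the 6 inputs have no columns of values and were not analysed here. The authors trimmed reads with Trimmomatic 0.39, aligned them to mm10 (GRCm38) with STAR 2.6.1d, removed duplicates with Picard 2.21.7, called peaks in ChIP against input with MUSIC (false discovery rate 0.2), merged them into union peaks and normalized the counts with DESeq2 1.26.0. Each library's deposited column holds such normalized counts after rounding, and was handled as a score rather than as raw counts. The authors also deposited unrounded genotype means, used here as a signal. The authors' log2 fold changes, p-values and the fraction of each peak in its gene were deposited too and were not used here. The authors assigned genes by the nearest promoter within 5000 bases. Size factors set the bulk of peaks to no change, so a loss shared by all peaks would not be visible.

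The integer counts that underlie each value were worked out from the rounded columns and the genotype means, with a single solution for 15848 of 15848 peaks (largest gap 1.33e-06), and give the depth per library. Peaks with a mean of at least 10 (15039) were tested with limma 3.58.1 in R 4.3.3 (lmFit, eBayes with trend) on log2(value + 1), genotype alone, two-sided, Benjamini–Hochberg adjusted. Log2 differences understate changes of low peaks. Tested on simulated counts of these 15039 peaks with 200 changed, 86% of 2-fold and 98% of 4-fold changes were recovered, and 1.08% of calls were false. All simulated peaks shared the same variation beyond counting error, so these rates need not hold for the real peaks. For ratios of summed signal, an exact two-sided permutation test was used.

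Positions are those of the deposited table on mm10. Transcript starts came from GENCODE vM21, gene starts and sequence from RefSeq (GRCm38.p6). The host gene is the coding gene whose coding transcript starts inside the peak, nearest its middle. Without such a start it is the smallest coding gene over the middle. Its promoter peak is the strongest peak assigned to it. The text names, per direction, 8 called peaks without overlap between genotypes in order of p, the 5 with the highest mean and the 5 with the highest mean per kb, peaks of 3 gene lists that were called or had the highest mean, and the peaks next to each limit. CpG windows belong to the first 4 peaks in each direction and the first 2 by level, and those over an annotated untranslated region are not shown. The peaks, gene lists and rules were chosen with earlier results of these data known. Alternatives were limma-voom on the recovered counts, another pseudocount, filter and scaling, a GC correction, a replicate block and the omission of each library. No batch is given in the labels.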

Additional observations from a re-analysis of the deposited data

How the results depend on the processing

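The median log2 difference of the 366 peaks kept its sign under every alternative, at −0.04 with a mean of at least 50 and with the GC correction (−0.044 and −0.039, the latter with the replicate block too) and −0.106 to −0.0613 with 1 library left out. The GC correction raised the count of higher peaks from 13 to 29 at an adjusted p (28 with the block) and from 41 to 63 at an unadjusted p (62 with the block). Leaving out 1 library gave 6 to 17 higher and 31 to 44 lower peaks at an adjusted p, and 32 to 41 and 80 to 100 at an unadjusted p. Counts with limma-voom were 16 and 58, and 49 of the 49 lower peaks were called by it too. The causes were not tested. The ratio to shorter peaks without a gene turned negative, at −0.034 when the mean had to reach 50, −0.056 with quantile normalization and −0.029 with only the peaks over 5000 bases from a start, and ran from −0.0126 to 0.0157 with 1 library left out. With 1 library left out, the ratio to gene-assigned peaks of the same width ran from −0.127 to −0.0827 and that of far to near peaks from −0.062 to −0.0041. The first was −0.137 with the median over peaks and −0.138 with only the far peaks, and the second −0.279 with the median, −0.152 with a limit of 10000 bases and −0.0934 with 2000 bases. Peaks that changed more negatively than their host promoter peak numbered 2 to 8 with 1 library left out.

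Same-numbered libraries of the genotypes deviated together with correlations of 0.0759, −0.0812 and 0.105, so the numbers were not taken as pairs. With the replicate block, 14 peaks were higher and 43 lower at an adjusted p, 38 and 92 at an unadjusted p. With the same block, 4 peaks changed more negatively than their host promoter peak.

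Among the named peaks, signs changed only where no call was made. Slc8a1 moved to 0.055 and Nebl to 0.0060 with the GC correction, with or without the block, and Ank2 to 0.076 with the same correction, to 0.048 with limma-voom and to between −0.16 and 0.176 with 1 library left out. Gm47110 moved to 0.033 with limma-voom and ran from −0.085 to 0.101 with 1 library left out, Gpsm1 from −0.107 to 0.073, Smyd1 from −0.0084 to 0.167, Mef2c from −0.0308 to 0.0876 and Ndel1 from −0.0224 to 0.15. Calls were lost at Cd36, Tsc22d1, Lrrfip1, Slc12a7 and the peak near Gm49390, and Tead1 was called with limma-voom and without Cpt1bcKO replicate 3. With 3 libraries per genotype, CtrlCre replicate 2 at 763133 counts limits the weakest peaks.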

Other observations

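Other called peaks, chosen here after their values were seen, included genes of CM signalling and structure. Adra1b, the alpha-1B adrenergic receptor, was lower at a coding start, with 193, 205 and 140 against 95, 73 and 106 (log2 difference −0.96, limma, adjusted p = 0.000406), and Pde2a, a cyclic nucleotide phosphodiesterase, had 46, 49 and 31 against 14, 15 and 19 (−1.32, limma, adjusted p = 0.0163). The splicing regulator Rbfox1 had 155, 158 and 156 against 90, 105 and 68 at a coding start (−0.85, limma, adjusted p = 0.000858), and its relative Rbfox2 had 108, 98 and 95 against 53, 63 and 83 (−0.61). Both fell without overlap between genotypes. Genes of the cytoskeleton and cell junctions were also among the lower peaks: Macf1, which crosslinks actin and microtubules, had 107, 126 and 112 against 67, 66 and 61, Dst, a spectraplakin like Macf1, had 196, 225 and 191 against 149, 153 and 139, and Ctnna3, the alpha-T catenin of the intercalated disc, had 138, 151 and 135 against 103, 98 and 91.

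Higher peaks with coding starts inside included Rcan1, an inhibitor of calcineurin, with 79, 77 and 73 against 106, 103 and 139 (log2 difference 0.58, limma, adjusted p = 0.0281), and Sorbs2, a Z-disc adaptor, with 239, 260 and 276 against 318, 335 and 346 (0.37, limma, adjusted p = 0.0364). Adam19, a metalloprotease, was called higher although the genotypes overlapped, because CtrlCre replicate 2 had 28 and Cpt1bcKO replicate 1 also had 28, while the other values were 7 and 4 against 45 and 112. These peaks were picked from 62 calls, so their functions do not describe the calls as a whole.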
